A study of Mus musculus with 10 samples.

Results

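Of 1236167 bins of 2 kb on the 19 autosomes, 4688 carried H3K4me3 in undifferentiated XT67E1 mouse embryonic stem (ES) cells and after differentiation, with little H3K27me3 at the outset. They are called members here. A member held 30 or more H3K4me3 reads in undifferentiated XT67E1 cells, more than 0.5 times that number both in 10-day embryoid bodies (EBs) and after treatment with all-trans retinoic acid (atRA) for 4 days, and 8 or fewer H3K27me3 reads in undifferentiated XT67E1 cells. Of 6619 autosomal bins with 30 or more undifferentiated H3K4me3 reads, 5129 met both H3K4me3 ratios, and 4688 of those also met the H3K27me3 limit. The members lay in 4300 separate runs, of which 3917 were 1 bin long and the longest 6 kb, with a median distance of 150 kb between neighbouring runs. No gene annotation of mm9, the build of the coordinates, was used here, so whether the bins are promoters was not checked and regions are given by position, counted from 1.

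The study profiled both marks by chromatin immunoprecipitation and sequencing in lines used to follow X inactivation. H3K4me3 was profiled in XT67E1 (strain C3H/Pgk*129) as 10-day EBs, after 4-day atRA and undifferentiated. H3K27me3 was profiled in the same 3 states of XT67E1, and in LF2 and E14 (both 129/Ola) as 10-day EBs and undifferentiated. Undifferentiated cells were grown with serum and LIF on gelatin, and EBs were formed by taking LIF away. By general knowledge of these lines, E14 is male, while LF2 and XT67E1 are female. Each of the 10 libraries was the only sample of its group, so line, strain and library cannot be told apart. The H3K4me3 libraries held 2252395 reads each, those for H3K27me3 8380007 in XT67E1 and 4531733 in LF2 and E14.

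H3K4me3 is placed by the SET1 and MLL methyltransferase complexes around the start sites of active genes, most of all at CpG islands. H3K27me3 is placed by Polycomb repressive complex 2 over silent developmental genes, where in ES cells it often overlaps H3K4me3 in what is called bivalent chromatin. H3K4me3 without H3K27me3 is the usual state of promoters of genes used in most cell types. In a bulk sample, a mark on fewer cells and less of the mark per cell cannot be told apart.

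H3K4me3 chose the members and is therefore described and not tested. The median member held 38 H3K4me3 reads in EBs (quartiles 30 and 48), 49 after atRA (37 and 65) and 48 undifferentiated (38 and 64), where the mean autosomal bin with a read held 1.85 in each library. Members took 8.85% of all autosomal H3K4me3 reads in EBs, 11.6% after atRA and 11.8% undifferentiated. The ratio of EBs to undifferentiated cells had a median of 0.746 and was below 1 in 4073 members (86.9%), while the ratio of atRA to undifferentiated cells had a median of 0.979 and was below 1 in 2426 (51.7%). The typical member thus held about its undifferentiated H3K4me3 level after atRA, and most members held less in EBs. The bin with the most H3K4me3 reads, chr7:52382001-52384000, held 101 in EBs, 148 after atRA and 201 undifferentiated, and lay just inside the limit on the EB ratio. The next, chr8:73420001-73422000, held 130, 137 and 200 in the same order. The bin on chromosome 7 held at most 6 H3K27me3 reads in any of the 7 libraries. The bin on chromosome 8 held 11 in XT67E1 EBs, above the mean of 6.83 for an autosomal bin with a read, and at most 5 in the other 6.

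**Figure D1:**
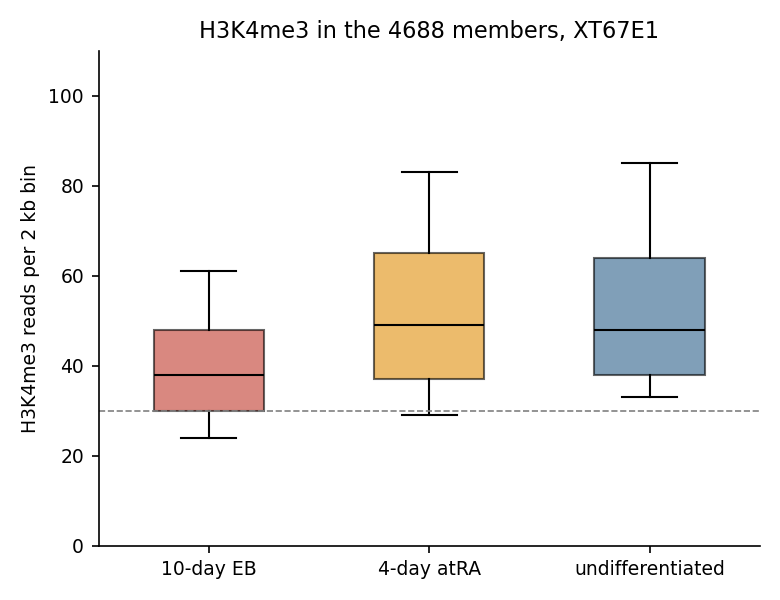
H3K4me3 reads per 2 kb bin (vertical axis) in the 4688 members in 10-day EBs, after 4-day atRA and in undifferentiated XT67E1 cells. Boxes show quartiles and the median, whiskers the 10th and 90th percentiles, and the dashed line the minimum of 30 reads set on undifferentiated cells. The EB median, 38 reads, is below the medians of 49 after atRA and 48 undifferentiated.

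The H3K27me3 limit of 8 reads is a loose one, since the mean autosomal bin with a read held 6.89 H3K27me3 reads in undifferentiated XT67E1 cells. Members averaged 3.58 reads in that library, which the rule used, or 0.519 times the autosomal mean. After atRA, in a library the rule did not use, they averaged 3.22 reads, or 0.467 times the autosomal mean (95% counting interval 0.460 to 0.475), so the low level was found again. In XT67E1 EBs they averaged 5.19 reads, or 0.760 times (0.7501 to 0.769). In EBs 17 members (0.363%) held 20 or more reads, against 2.33% of all autosomal bins with a read, and 10 (0.213%) held 20 or more after atRA, against 3.92%. A single member carries wide counting error: 3 reads allow a true mean of 0.619 to 8.77.

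The other 2 lines gave different levels at the same bins. In LF2, members averaged 2.91 reads in EBs, or 0.786 times the autosomal mean (0.773 to 0.799), and 3.33 reads undifferentiated, or 0.888 times (0.874 to 0.902). In E14, they averaged 3.98 reads in EBs, or 1.05 times the autosomal mean (1.03 to 1.06), and 5.18 reads undifferentiated, or 1.37 times (1.35 to 1.38). The mean over all members was thus under the autosomal mean in every XT67E1 and LF2 library and above it in both E14 libraries. In undifferentiated E14 the 19 autosomes taken singly ran from 1.24 times (chromosome 14) to 1.49 times (chromosome 12). Single autosomes went the other way in other libraries. In E14 EBs chromosomes 16, 17 and 18 were under the autosomal mean (0.978, 0.924 and 0.988 times). Chromosome 8 was above it in XT67E1 EBs (1.14 times) and LF2 EBs (1.16 times). In undifferentiated LF2 chromosomes 8, 13 and 14 were above it (1.09, 1.02 and 1.02 times). The low H3K27me3 in the name "H3K4me3-only" was fixed by the rule in undifferentiated XT67E1 cells, so that library cannot bear the name out. Among libraries the rule did not use, the level was lowest after atRA in XT67E1, at 0.467 times. LF2 was nearer the autosomal mean, and the name goes against the E14 reads, most of all in undifferentiated cells. The mean over lines was 0.865 ± 0.160 times in EBs (SD, n = 3) and 1.13 ± 0.338 times in undifferentiated LF2 and E14 (SD, n = 2).

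In undifferentiated E14 the excess showed in the median member as well as in the mean, and in E14 EBs in the mean but not the median. The E14 EB median was 3 reads both for members and for all autosomal bins with a read, and 31.04% of members passed 4 reads there, against 28.6% of all autosomal bins. The median member held 4 reads in undifferentiated E14, against 3 for all autosomal bins with a read. More than 4 reads, which is 8 reads scaled to the depth of this library, were found in 2136 members (45.6%), against 29.2% of all autosomal bins. In undifferentiated LF2 the same limit was passed by 1098 members (23.4%), against 27.1% of all autosomal bins. At the level of 20 XT67E1 reads scaled to depth, 261 members (5.57%) were H3K27me3-rich in undifferentiated E14, against 2.29% of all autosomal bins, and 98 (2.09%) in undifferentiated LF2, against 5.14%. The lists shared 60 members, which is 23.0% of the E14 list and 61.2% of the LF2 list. The overlap of rich bins over all autosomal bins was not counted, so nothing is read from the size of this one.

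Some members thus held many H3K27me3 reads in a line other than the one that chose them, with no input control analysed here. The bin chr7:121558001-121560000 held the most reads in undifferentiated E14, with 34 in EBs and 82 undifferentiated in E14, 16 and 24 in LF2, and 16 in EBs, 20 after atRA and 6 undifferentiated in XT67E1. It reached the H3K27me3-rich level in all 4 libraries of E14 and LF2 and in XT67E1 after atRA, but not in XT67E1 EBs. The bin with the most reads in undifferentiated LF2, chr4:58924001-58926000, held 12 in EBs and 26 undifferentiated in LF2, 13 and 63 in E14, and 10, 1 and 2 in the EB, atRA and undifferentiated libraries of XT67E1. These bins were named for their high undifferentiated reads, so fewer reads in EBs of the same line are not independent of that choice. The bin chr1:134942001-134944000 was also named so, with 14 and 24 reads in LF2 and 21 and 59 in E14, while XT67E1 held 20 in EBs, 12 after atRA and 7 undifferentiated.

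**Figure D2:**
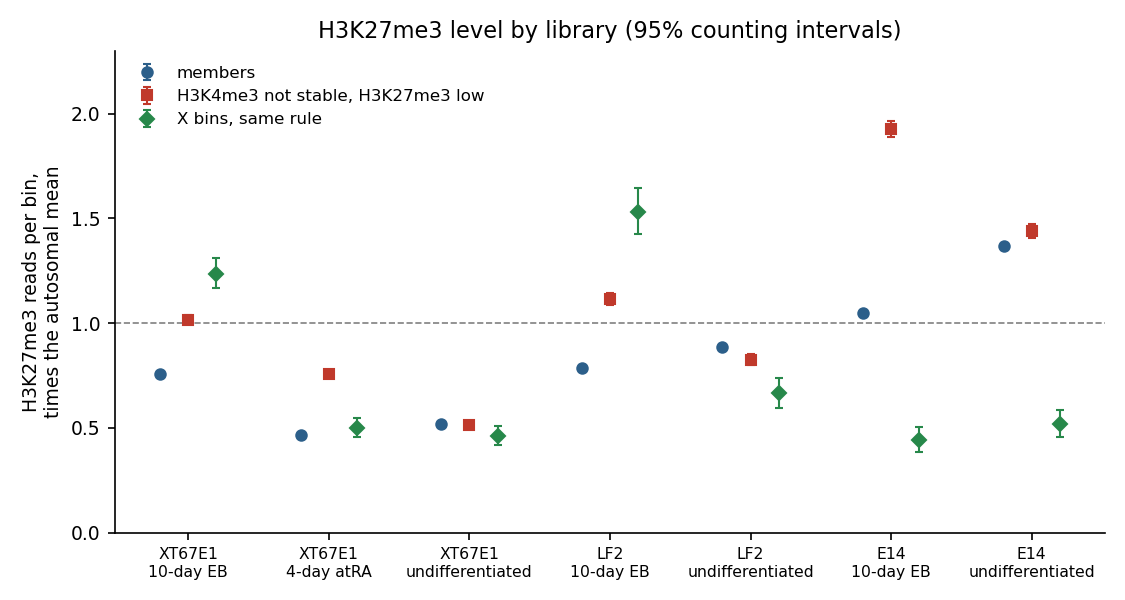
H3K27me3 reads per 2 kb bin as a multiple of the autosomal mean (vertical axis) in the 7 libraries, for members, for H3K4me3 bins with low H3K27me3 whose H3K4me3 was not stable, and for X bins that met the same rule, with 95% counting intervals. Members are above 1 in E14 EBs (1.05) and undifferentiated E14 (1.37) and below 1 in the other 5 libraries.

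Since the rule chose bins low in undifferentiated XT67E1 cells, members were set beside the other 843792 autosomal bins with a read and 8 or fewer such reads, weighted to the same numbers of undifferentiated XT67E1 reads. In XT67E1 EBs members averaged 5.19 reads against 4.90 in those other bins. After atRA members averaged 3.22 against 4.29. LF2 gave 2.91 reads for members against 2.60 in EBs, and 3.33 against 2.28 undifferentiated. E14 gave 3.98 against 2.68 in EBs, and 5.18 against 2.76 undifferentiated. The weighted means hide differences between read levels. From 0 to 8 undifferentiated XT67E1 reads, members were above the other bins at 9 of 9 levels in both E14 libraries and in undifferentiated LF2, at 7 in LF2 EBs and at 6 in XT67E1 EBs, and below them at 7 after atRA. In XT67E1 EBs the gap was widest at 0 reads, with 4.26 reads in members against 1.80. It was reversed at 4 to 6 reads, with 5.45 against 5.72 at 5 reads. The other bins at 0 reads were low in every library, from 0.825 reads in undifferentiated LF2 to 1.80 in XT67E1 EBs. Members had to hold a minimum of H3K4me3 reads and the other bins did not, so coverage was not matched. Whether poorly covered sequence among the other bins accounts for part of these gaps was not tested.

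Around the members, H3K27me3 formed a wide shallow valley in every library. From 60 to 100 kb on either side the mean level lay between 1.13 times the autosomal mean (undifferentiated XT67E1) and 1.32 times (undifferentiated LF2). At 6 to 10 kb it lay between 0.807 times (XT67E1 after atRA) and 0.961 times (XT67E1 EBs). The 3 lines shared this valley and differed at its floor. In XT67E1 the member bin itself was lower still, at 0.791 times its own flank in EBs (counting interval 0.780 to 0.801) and 0.579 times after atRA (0.569 to 0.588), where the flank is the mean of the bins at 6 to 10 kb. The value of 0.633 in undifferentiated cells was set in part by the rule. In LF2 the ratio to the flank was 0.873 in EBs (0.858 to 0.889) and 0.962 undifferentiated (0.946 to 0.979). In E14 the bin stood above its flank, at 1.17 times in EBs (1.16 to 1.19) and 1.47 times undifferentiated (1.45 to 1.495). The bin exceeded its own flank in 2554 members (54.5%) in E14 EBs and in 2936 (62.7%) in undifferentiated E14, against 1495 (31.9%) in XT67E1 EBs. The E14 rise was not particular to members. Low-H3K27me3 bins with unstable H3K4me3 stood at 1.70 times their flank in E14 EBs and 1.41 times undifferentiated. They gave 0.965 times in XT67E1 EBs, 0.860 after atRA and 1.09 in LF2 EBs. Their level at 60 to 100 kb was 1.12 to 1.34 times the autosomal mean. Stable bins with more than 8 undifferentiated XT67E1 H3K27me3 reads gave 2.71 in both E14 libraries and 1.87 in XT67E1 EBs.

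**Figure D3:**
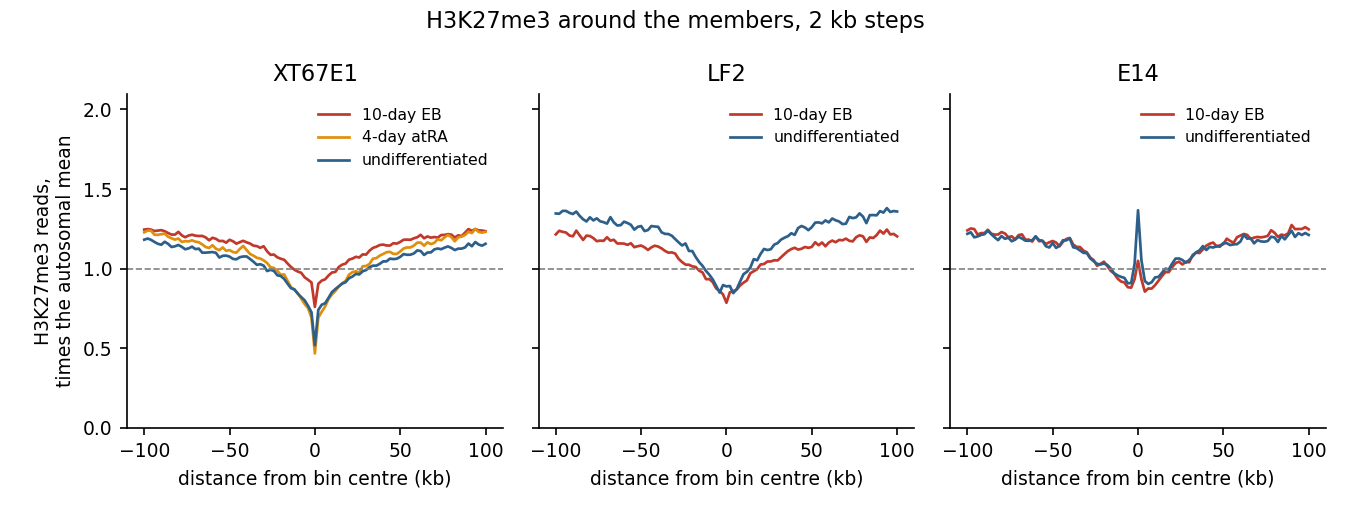
H3K27me3 reads per 2 kb bin as a multiple of the autosomal mean (vertical axis) by distance from the member's centre in kb, mean over members, in EBs, after atRA and in undifferentiated cells of each line. All libraries fall towards the members within 100 kb. The narrow centre goes down in XT67E1, to 0.760 in EBs, and up in E14, to 1.37 in undifferentiated cells.

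Aligned on the median position of each member's undifferentiated H3K4me3 reads and read in 200 bp steps, the E14 signal was a narrow peak at the same place as H3K4me3. Its highest step was 1.21 times the autosomal mean in E14 EBs and 2.06 times in undifferentiated E14, against 0.860 and 0.906 times beyond 4 kb. H3K4me3 itself peaked in the same step, at 73.7 times its autosomal mean in undifferentiated XT67E1. In XT67E1 the lowest step lay within 300 bp of the centre in each state, with a minimum of 0.658 times in EBs and 0.384 times after atRA, against 0.924 and 0.743 times beyond 4 kb. LF2 varied less over the same 10 kb, ranging from 0.749 to 0.907 times in EBs and from 0.802 to 0.948 times undifferentiated. The opposite shapes in E14 and XT67E1 rest on 1 library per state, and neither an input control nor H3K4me3 of E14 or LF2 was analysed here.

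**Figure D4:**
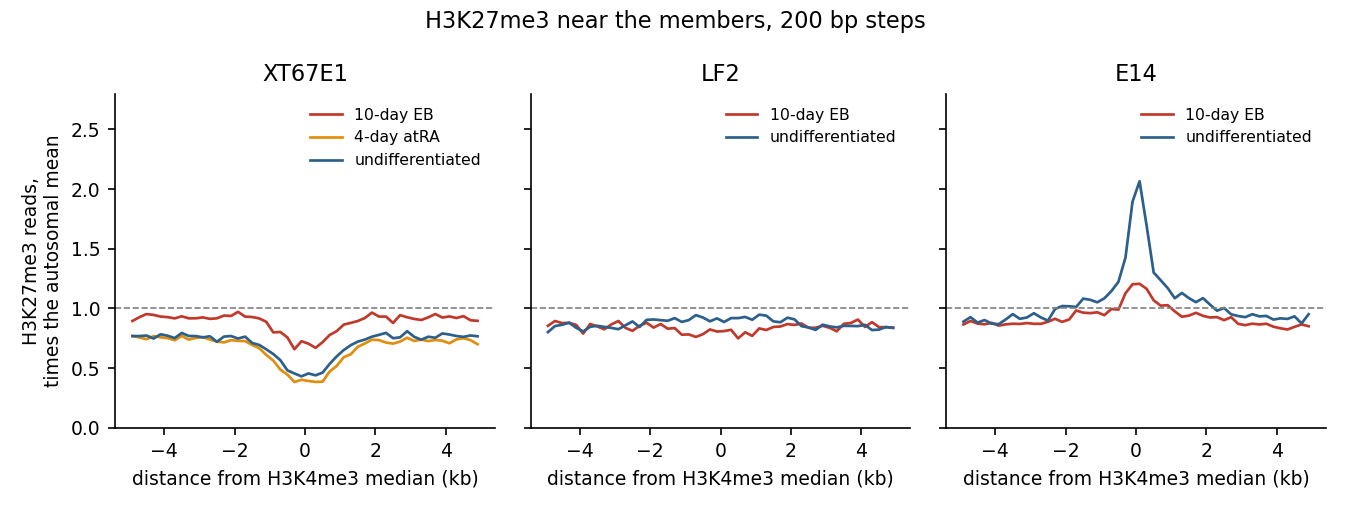
H3K27me3 reads in 200 bp steps as a multiple of the autosomal mean (vertical axis) by distance in kb from the median H3K4me3 position of each member, for each line and state. E14 rises to 1.21 in EBs and 2.06 in undifferentiated cells at the centre, and XT67E1 falls to 0.658 in EBs and 0.384 after atRA.

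H3K27me3 at members differed with the strength of H3K4me3 to a small degree. Over 4 groups of members from the fewest undifferentiated H3K4me3 reads (30 to 37) to the most (64 to 201), the H3K27me3 level in undifferentiated LF2 was 1.02, 0.910, 0.854 and 0.777 times the autosomal mean, and in undifferentiated E14 1.46, 1.38, 1.34 and 1.29 times. After atRA in XT67E1 it was 0.544, 0.504, 0.435 and 0.391 times. XT67E1 EBs gave 0.817, 0.797, 0.717 and 0.712 times, and LF2 EBs 0.828, 0.815, 0.756 and 0.746 times. The level declined from group to group in these 5 libraries. E14 EBs gave 1.10, 1.11, 1.01 and 0.983 times, which is not a steady decline and is under the autosomal mean in the group with the most H3K4me3.

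H3K27me3 was higher just outside the H3K27me3 limit and the H3K4me3 ratio limit than just inside, and mixed at the limit on H3K4me3 reads. The 404 members with 7 or 8 undifferentiated XT67E1 H3K27me3 reads averaged 7.89 reads in undifferentiated E14 and 5.37 in undifferentiated LF2, against 11.6 and 7.22 in the 175 stable bins just outside, with 9 or 10 reads. The 305 members with 30 or 31 undifferentiated H3K4me3 reads averaged 5.56 H3K27me3 reads in undifferentiated E14, against 5.22 in 327 bins with 28 or 29. In E14 EBs the same bins averaged 4.16 inside and 4.57 outside. The 426 members whose lower H3K4me3 ratio was at most 0.55 averaged 4.43 in E14 EBs and 4.89 in undifferentiated E14, and the 364 bins just outside, over 0.45 and up to 0.5, averaged 5.53 and 5.34.

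In EBs, H3K27me3 at the members was lower than in undifferentiated cells of LF2 and E14, the lines the rule did not use. LF2 members held 13636 reads in EBs and 15608 undifferentiated, a log2 ratio of -0.18 (counting interval -0.21 to -0.14). In E14 they held 18670 in EBs and 24272 undifferentiated, a log2 ratio of -0.38 (-0.41 to -0.35). The mean over the lines was -0.28 ± 0.14 (SD, n = 2), and 0.5 is the smallest p that an exact sign-flip test of 2 lines can give, so no test over lines was made. By chromosome the ratio was below 0 on 19 of 19 autosomes in E14 and on 18 of 19 in LF2, where chromosome 8 was at 0.08. Chromosome 8 also held the fewest members among its H3K4me3 bins, at 55.3%. Its members had the highest level of any autosome in each XT67E1 and LF2 library. In LF2 this was 1.16 times in EBs and 1.09 times in undifferentiated cells. In E14 chromosome 8 gave 1.06 times in EBs and 1.32 times undifferentiated, where the median autosome gave 1.04 and 1.36 times. Levels were scaled to all autosomes, and the limit of 8 reads was the same on each. The level of all chromosome 8 bins was not set beside its members, so a chromosome-wide difference in reads cannot be told apart from one at the members.

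In XT67E1 the ratio ran the other way, but the undifferentiated library chose the bins for few reads. Members held 24331 reads in EBs and 16763 undifferentiated, a log2 ratio of 0.55, and 15077 after atRA, a log2 ratio to undifferentiated cells of -0.15. That ratio turned to 0.14 when members were held to at most 4 undifferentiated H3K27me3 reads. Set against each other, the 2 libraries the rule did not use gave 1.63 times as many reads in EBs as after atRA (1.59 to 1.66), or 0.70 on the log2 scale. This comparison was added after the data were seen. It was positive on 19 of 19 autosomes, from 0.30 on chromosome 12 to 0.95 on chromosome 16. Scaling to reads in bins of low coverage instead of all autosomal reads moved all log2 ratios by -0.23 in LF2, 0.10 in E14, -0.11 in XT67E1 EBs, 0.13 after atRA and -0.24 for EBs over atRA. The members' ratios were then -0.41 in LF2, -0.28 in E14, 0.44 in XT67E1 EBs, -0.02 after atRA and 0.46 for EBs over atRA. None of the 5 changed sign under this scaling, but little was left of the ratio of atRA to undifferentiated cells, which had been -0.15.

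In LF2 and E14 the H3K27me3 ratio of EBs to undifferentiated cells was graded by how much H3K4me3 the bin had kept in XT67E1 EBs. In the 615 members whose H3K4me3 ratio was 1 or more, the H3K27me3 log2 ratio of EBs to undifferentiated cells was -0.35 in LF2 (counting interval -0.44 to -0.27) and -0.59 in E14 (-0.66 to -0.51). In the 1719 members with an H3K4me3 ratio of 0.75 up to 1 LF2 gave -0.24 (-0.29 to -0.18) and E14 -0.44 (-0.48 to -0.39). In the 2354 members below 0.75 it was -0.08 in LF2 (-0.13 to -0.03) and -0.29 in E14 (-0.33 to -0.25). The counting intervals of the highest and the lowest class do not overlap in either line, and H3K4me3 and H3K27me3 here come from different lines and libraries. The H3K27me3 level was lower in EBs in each class of members, but the steady grading was in the undifferentiated levels. From the highest class to the lowest, LF2 gave 1.04, 0.909 and 0.834 times the autosomal mean undifferentiated. Its EBs gave 0.813, 0.772 and 0.789 times. E14 gave 1.56, 1.35 and 1.32 times undifferentiated, and 1.04, 1.00 and 1.09 times in EBs.

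Beyond the members the gradient went through 0 in LF2 and E14. The 967 bins that met the same limits on undifferentiated reads but kept over 0.25 and up to 0.5 of their H3K4me3 had ratios of 0.44 in LF2 (0.37 to 0.51) and 0.41 in E14 (0.36 to 0.46). The 204 bins that kept 0.25 or less had 0.61 in LF2 (0.47 to 0.76) and 0.51 in E14 (0.41 to 0.62). XT67E1, whose undifferentiated library the rule used, gave ratios above 0 throughout. They were 0.47, 0.53 and 0.59 in the member classes from highest to lowest, then 0.93 and 1.33 beyond. EBs over atRA in XT67E1 did not follow the gradient, at 0.65, 0.69 and 0.72 in the member classes and 0.53 and 0.17 beyond. Over all 1367 bins with unstable H3K4me3, H3K27me3 averaged 1.93 times the autosomal mean in E14 EBs and 1.44 times undifferentiated, and 1.11 and 0.825 times in LF2. In undifferentiated cells these bins resembled the members in level, at 1.44 times against 1.37 in E14 and 0.825 against 0.888 in LF2.

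Windows of 10 kb centred on members were then called by size, as changed where the ratio was at least 2-fold and its 95% interval (conditional binomial, exact) left out 1. A window needed 20 reads over both libraries. In LF2 EBs 141 of 3971 member windows (3.55%) were higher and 151 (3.80%) lower, where all autosomal windows gave 4.20% higher and 2.73% lower. In E14 EBs 63 of 4443 (1.42%) were higher and 319 (7.18%) lower, with 2.27% and 3.09% over all windows. In XT67E1 EBs against atRA 849 of 4670 (18.2%) were higher and 9 (0.193%) lower, with 5.39% and 0.877% over all windows. The member shares in LF2 EBs were near the background, while the shares lower in E14 EBs and higher in XT67E1 EBs than after atRA were above it. Against undifferentiated XT67E1 cells, which the rule used, 407 of 4682 windows (8.69%) were higher and 7 (0.150%) lower in EBs (2.53% and 0.931% over all windows), and 65 of 4611 (1.41%) higher and 203 (4.40%) lower after atRA (0.965% and 2.32%). The balance depended on scaling. With low-coverage bins as the scale, 1.36% of member windows were higher and 8.16% lower in LF2 EBs, where all windows gave 1.74% and 6.29%. E14 EBs then gave 2.57% and 5.11% (3.51% and 2.02% over all windows), and atRA 2.34% and 2.86% (1.73% and 1.39%). XT67E1 EBs gave 5.60% and 0.320% against undifferentiated cells (1.60% and 1.72%), and 9.12% and 0.642% against atRA (2.40% and 3.27%).

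Over LF2 and E14 together, EBs were tested against undifferentiated cells with limma in 10 kb bins, with the line as a block and Benjamini-Hochberg adjustment over all 200510 bins tested. Of 4340 bins of 10 kb that hold a member, 4029 had enough reads, and 6 rose and 10 fell at an adjusted p under 0.05. This is 0.149% and 0.248% of them, where 0.0783% of all bins rose and 0.0833% fell. At an unadjusted p under 0.05, 2.81% rose and 6.78% fell, with 3.70% and 3.45% over all bins. Members' bins had a median log2 change of -0.09 and all bins one of 0.03. With 1 residual degree of freedom per bin, limma's estimate of spread was shared entirely over bins, so a bin's own scatter has no part in its p-value. Without the block 0 members' bins rose and 0 fell, with 10 rises and 2 falls among all bins. At an unadjusted p under 0.05 in that fit, 72 rose (1.79%) and 211 fell (5.24%), with 2.43% and 2.25% over all bins.

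The largest rise was at chr3:34550001-34560000. This bin held 59 reads in EBs and 25 undifferentiated in LF2, 165 and 26 in E14, and 114 in EBs, 41 after atRA and 29 undifferentiated in XT67E1. H3K27me3 was higher in EBs in each line, and limma gave a log2 change of 1.92 (SE 0.34, adjusted p = 7.2e-05). Its member, chr3:34550001-34552000, held 65 H3K4me3 reads in EBs, 60 after atRA and 119 undifferentiated, just inside the stability limit in both differentiated states. The bin chr18:36440001-36450000, with 2 members, held 51 reads in EBs and 10 undifferentiated in LF2, 120 and 45 in E14 and 52 and 14 in XT67E1 (log2 change 1.83, SE 0.33, limma adjusted p = 0.00017). The bin chr10:60880001-60890000 held 20 and 8 reads in LF2, 46 and 8 in E14 and 29 and 17 in XT67E1 (1.81, SE 0.37, limma adjusted p = 0.0021).

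The largest fall was at chr17:46160001-46170000, with 14 reads in EBs and 22 undifferentiated in LF2, 20 and 155 in E14 and 32 and 26 in XT67E1. It was mainly an E14 difference (log2 -2.90, against -0.60 in LF2), although limma called it over both lines (-1.75, SE 0.33, adjusted p = 0.00039). Its member chr17:46166001-46168000 kept its H3K4me3, with 37 reads in EBs, 34 after atRA and 38 undifferentiated. The bin chr4:98780001-98790000 held 19 reads in EBs and 52 undifferentiated in LF2, 11 and 50 in E14 and 57 and 48 in XT67E1 (-1.74, SE 0.33, limma adjusted p = 0.00051). Here LF2 and E14 moved together and XT67E1 did not follow. The bin chr8:60130001-60140000 was lower in EBs in all 3 lines, with 20 and 52 reads in LF2, 24 and 63 in E14 and 54 and 88 in XT67E1 (-1.34, SE 0.33, limma adjusted p = 0.035). Of the 10 bins that fell, 7 had a ratio above 0 in XT67E1. So did each of the 6 that rose, from 0.08 (chr9:27100001-27110000) to 1.95 (chr3:34550001-34560000). The undifferentiated XT67E1 library had chosen the members for few reads, so the XT67E1 direction is not independent of the rule.

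The windows with the most extreme called ratios rested on few reads on one side. In LF2 the window around chr11:95170001-95172000 held 10 reads in EBs and 49 undifferentiated (log2 -2.17, counting interval -3.42 to -1.28). The window around chr10:60880001-60882000 held 60 in EBs and 7 undifferentiated in E14 (2.93, interval 1.97 to 4.47). The window around chr9:21396001-21398000 held 42 reads in XT67E1 EBs and 5 after atRA (2.85, interval 1.75 to 4.78), although its member bin held 10 and 2 reads. After atRA the window around chr8:123060001-123062000 held 93 reads, against 26 undifferentiated (1.80, interval 1.20 to 2.53), and its member 18 against 1. That member also held 28 reads in EBs and 5 undifferentiated in LF2.

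Of the members, 572 (12.2%) lay within 10 kb of a bin with 20 or more undifferentiated XT67E1 H3K27me3 reads. Members cannot be such bins themselves, so they were set beside the other autosomal bins with a read that also held 8 or fewer such reads, of which 7.46% lay within 10 kb of one. Within 50 kb the shares were 52.9% of members and 29.7% of those other bins. Neighbouring bins are not independent, and the shares were not tested.

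The same limits on reads picked 137 bins on X, where the ratio in the female lines was above that of the autosomal members. In LF2 the autosomal members had a log2 ratio of EBs to undifferentiated cells of -0.18, and the X bins, with 777 reads in EBs and 342 undifferentiated, one of 1.20 (counting interval 1.02 to 1.39). In XT67E1 the members had 0.55 and the X bins 1.42 (1.26 to 1.58), and the same choice on undifferentiated reads touches both. In E14 the members had -0.38 and the X bins, with 230 and 269 reads, -0.23 (-0.49 to 0.03). Members minus X bins came to -1.38 in LF2 and -0.87 in XT67E1 on the log2 scale, and to -0.15 in E14, where the counting interval of the X bins holds the members' value. The highest autosome gave 0.08 in LF2 (chromosome 8) and 0.66 in XT67E1 (chromosome 15). With 2 female lines and 1 male line the difference between lines was not tested.

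After atRA the X bins had a log2 ratio of 0.11 to undifferentiated XT67E1 cells (-0.08 to 0.30), and the members -0.15. In LF2 the X bins were uneven: the 95 bins up to 109 Mb had 705 reads in EBs and 252 undifferentiated (1.502, interval 1.29 to 1.72), and the 42 bins beyond it 72 and 90 (-0.30, interval -0.77 to 0.16). The division at 109 Mb is the border that best separated the LF2 reads themselves along X, so the LF2 contrast between both sides is a description. In XT67E1 the same parts gave 1.42 (1.23 to 1.61) and 1.42 (1.12 to 1.72). The level in EBs was 0.760 times at the members and 1.24 times at the X bins in XT67E1, and 0.786 and 1.53 times in LF2. The LF2 X level was 2.00 times before the division and 0.463 times beyond it, under that of the members, and in XT67E1 it was 1.26 and 1.17 times.

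**Figure D5:**
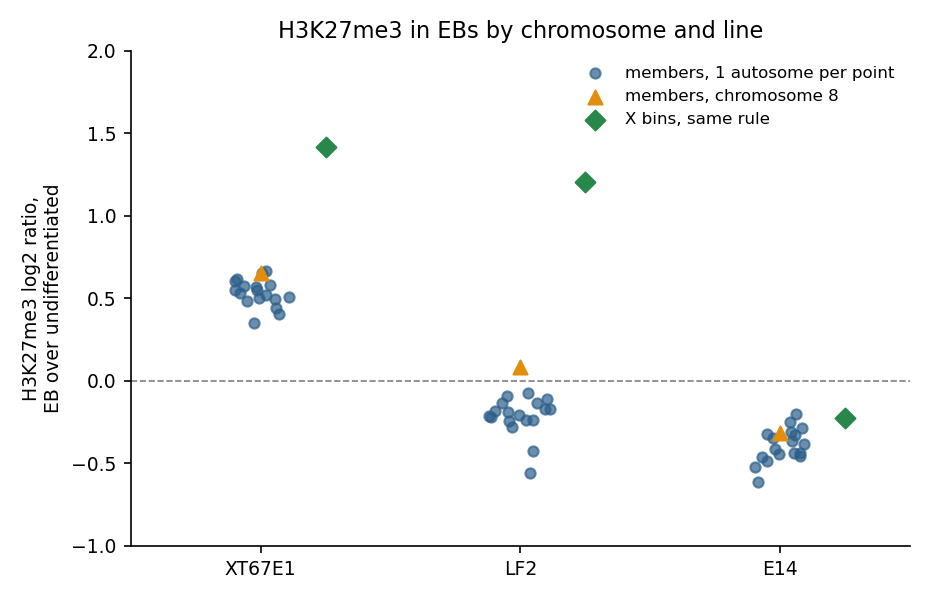
H3K27me3 log2 ratio of EBs to undifferentiated cells (vertical axis) for members by autosome (points, chromosome 8 as a triangle) and for X bins under the same rule (diamonds), by line. The X bins are at 1.42 in XT67E1 and 1.20 in LF2, above all autosomes, and at -0.23 in E14. The XT67E1 values share the undifferentiated library that chose the bins.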

How the data were processed

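The deposited files list read positions as 200 bp intervals with no strand and no count or other value. The authors' aligner, filters and read extension were not given in the sources used here. The build is mm9, per the submitters' processing notes. No interval was repeated within a file, and files of a set held equal numbers of reads. Interval midpoints were counted in 2 kb bins from position 0, and ratios were scaled to autosomal reads. Levels are multiples of the mean autosomal bin with a read in any library. Intervals are exact Poisson or conditional binomial 95% intervals and cover counting error only. Groups were taken from the sample labels, and libraries of a line were paired as the same line (the correlation of their deviations over bins was 0.18). limma 3.58.1 in R 4.3.3 used log2 of scaled reads with a prior of 1 read, a mean-variance trend and at least 40 reads in the 4 libraries. The limma and size calls were tried on simulated reads. Those had counting error only (size calls) or a common spread (limma), with no differences between lines. The simulations therefore do not cover such differences in these data. The members, comparisons and naming rules were chosen with earlier results of these data known. Members were named for the most H3K4me3 reads, for the EB ratio nearest its limit, for the most reads in undifferentiated LF2 and E14, and for the highest and lowest called changes (at least 30 reads). Windows were tried at 20 kb and 2 kb, other limits of the rule at 20 and 50 (H3K4me3) and 4 and 12 reads (H3K27me3). Python 3.11.15, NumPy 2.4.6 and SciPy 1.17.1 were used.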

Additional observations from a re-analysis of the deposited data

Results flagged for a closer look

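EBs and undifferentiated cells differed in opposite directions between lines at the members: the H3K27me3 log2 ratio was 0.55 in XT67E1, where the undifferentiated library had been used to choose the bins, -0.18 in LF2 and -0.38 in E14. At the X bins under the same rule it was 1.42 in XT67E1 and 1.20 in LF2, and -0.23 in E14. With 1 library per line and state, neither difference between lines was tested.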

How the results depend on the processing

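The lower H3K27me3 of members in EBs held its sign under all 8 alternatives in LF2 (log2 -0.41 to -0.11) and in E14 (-0.39 to -0.28), and so did the gap to the X bins in LF2 (-1.41 to -1.26) and XT67E1 (-0.94 to -0.75). In E14 that gap ran from -0.16 to 0.14. A minimum of 50 H3K4me3 reads left 2234 members, with 0.0448% of windows lower in XT67E1 EBs (0.931% over all windows). It left 2 limma falls, or 0.100% of member bins tested, against 0.0833% of all bins. With at most 4 H3K27me3 reads the atRA ratio reversed to 0.14, since the undifferentiated reads it is set against are fewer by construction. In limma 4 member bins then fell (0.142%), against 0.0833% of all bins. In bins shifted by 1 kb, 2.15% of member windows were higher in E14 EBs, against 2.27% of all windows.

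For other settings, member windows called higher and lower are given with the share of all windows at that setting in brackets, leaving out shares within 1.5 times of the report's; those under background scaling stand in the report and were 1.36% and 8.16% in LF2 EBs, 2.57% higher in E14 EBs, 5.60% and 0.320% in XT67E1 EBs, 2.34% and 2.86% after atRA, and 9.12% and 0.642% for EBs over atRA. Windows of 20 kb gave 1.94% lower (1.11%) in LF2 EBs, 0.939% and 4.16% (0.959% and 2.08%) in E14 EBs, 3.18% and 0.0213% (1.01% and 0.161%) in XT67E1 EBs, 0.341% and 2.15% (0.291% and 1.12%) after atRA, and 11.0% and 0% (3.73% and 0.157%) for EBs over atRA. In the 2 kb bin alone few members had 20 reads. The 59 in LF2 gave 6.78% and 22.03% (2.00% and 12.8%), the 243 in E14 9.47% and 30.04% (9.48% and 6.18%), the 67 in XT67E1 EBs 49.3% and 0% (2.19% and 4.31%), the 46 after atRA 37.0% and 0% (3.79% and 2.18%), and the 135 for EBs over atRA 11.9% and 4.44% (1.70% and 5.43%). The XT67E1 directions against undifferentiated cells are fixed there by the limit of 8 reads. A pseudocount of 5 with no interval gave 2.01% and 1.71% (2.42% and 1.38%) in LF2 EBs, 0.810% and 4.19% (1.04% and 1.79%) in E14 EBs, 3.95% and 0.0427% (1.18% and 0.322%) in XT67E1 EBs, 0.672% and 1.76% (0.462% and 0.960%) after atRA, and 10.2% and 0.0642% (2.91% and 0.322%) for EBs over atRA. For the other changes the cause was not tested.

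The limma calls were few and depended on the fit. Shares here are of member bins tested. With no replicate block 0 member bins rose and 0 fell, with 10 rises and 2 falls among all 200510 bins. The rises were 10 (0.188%) with a minimum of 20 H3K4me3 reads, where 0.0783% of all bins rose. Voom gave 2 rises (0.0496%), with 98 among all 200510 bins. A minimum of 1 read gave 3 rises (0.0691%) and 4 falls (0.0922%), with 90 and 75 among all 252539 bins. With XT67E1 added 1 fell (0.0231%), with 70 falls among all 241197 bins. XT67E1 and E14 (without LF2) gave 1 fall (0.0231%), with 66 among all 233143 bins. XT67E1 and LF2 (without E14) gave 10 rises (0.233%) and 2 falls (0.0465%), with 464 and 169 among all 231971 bins. Leaving out a line from LF2 and E14 leaves no residual degrees of freedom under the block, so it was replaced by these pairs. A level of 3 reads per bin limits what can be said of a single member.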
